A study of Mus musculus with 64 samples.

Results

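Cytochrome P450s, UDP-glucuronosyltransferases (UGT), glutathione S-transferases (GST) and cytosolic sulfotransferases (SULT) are the enzyme families that modify drugs, dietary compounds, steroids and lipid mediators. The genes described here were taken by symbol: P450 families 1 to 4, Ugt1a, Ugt1b, Ugt2a and Ugt2b, the alpha, mu, pi, theta, omega, kappa and zeta GSTs, and Sult1 and Sult2. They number 133 of the 35534 genes measured, with 76 P450, 19 UGT, 23 GST and 15 SULT genes. Expression was measured by sequencing poly(A) RNA of the whole colon. The donors were Swiss Webster mice of wild type genotype, aged 8 to 12 weeks and kept on 12 h of light. The mice were specific pathogen free (SPF), which carry a gut microbiota, or germ-free (GF), which were raised without microbes and were held in ISOcages in place of isolators during treatment. In each kind, mice injected intraperitoneally with vancomycin, an antibiotic against Gram-positive bacteria (2.5 mg in 100 µl PBS), were compared with mice given 100 µl PBS alone, with 2 injections daily on 3 days and a single one on day 4. Tissue was collected 5, 11, 17 or 23 h after lights on (zeitgeber time, ZT), giving 16 groups of 4 libraries. The study's title names effects of antibiotics that do not depend on the microbiota, a question that the GF groups, which lack one, address. Whether each library is a separate animal is not stated in the labels, so p-values cover the spread among libraries only.

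In drug metabolism, P450s add or expose a reactive group (phase I), and UGTs, GSTs and SULTs then attach glucuronic acid, glutathione or sulfate (phase II), which makes the product soluble and ready for export. The liver is the main site of this chemistry, and the intestinal epithelium is a second one that meets food and bacterial products first. The genes are switched on by ligand sensors such as the aryl hydrocarbon receptor, the pregnane X receptor and the vitamin D receptor, and, in liver, by the clock output factors Dbp, Tef and Hlf. Several P450s of the gut act on the body's own fatty acids, among them arachidonic acid and leukotriene B4, rather than on drugs.

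The libraries held 10044032 to 13615804 estimated counts in SPF mice and 10513966 to 15736087 in GF mice. All 10 colon epithelium markers had a mean of 1 CPM or more (counts scaled to a common library size). A colon position score, distal minus proximal Hox genes as mean log2 CPM, ran from 1.73 to 4.52 in SPF libraries. In GF libraries it ran from -4.63 to 4.69 and left a gap between 1.84 and 3.01, with 15 libraries under 2.5 (8 vancomycin, 7 PBS). All 3 SPF libraries under 2.5 were of ZT11. The mean log2 CPM of 4 Y-linked genes was 1.36 or less in 9 of 16 GF vancomycin and 2 of 16 GF PBS libraries, 5.17 or more in the other GF libraries and 5.66 or more in all SPF libraries. With this score as a covariate, 0 of 77 members passed for vancomycin in GF colon. In whole tissue, fewer cells of a type and less RNA per cell cannot be told apart.

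Of the 133 genes, 71 reached a mean of 1 CPM in SPF or GF colon and are called expressed here, and 62 did not. The expressed genes were 35 of 76 P450, 10 of 19 UGT, 21 of 23 GST and 5 of 15 SULT genes. GST genes were thus mostly on, whereas 41 P450 and 10 SULT genes were not expressed. Among the 62, 12 had 0 counts in all 64 libraries. The P450s that respond to aryl hydrocarbons or to phenobarbital in liver were among the silent ones: 0 of 2 Cyp1a, 0 of 1 Cyp1b and 0 of 5 Cyp2b genes were expressed. Cyp1a1, the textbook target of the aryl hydrocarbon receptor, averaged 0.0576 CPM in SPF and 0.0420 CPM in GF colon. The fatty acid hydroxylases of the Cyp4a subfamily (0 of 5), the Ugt2a genes (0 of 3) and the Sult2a genes for bile acids and hydroxysteroids (0 of 8) were not expressed either. Of 7 Cyp3a genes, the main drug oxidases of liver, Cyp3a13 was expressed and the other 6 were not. Closest to the limit were Ugt2b36 above it, at 0.512 CPM in SPF and 1.09 CPM in GF colon, and Gsta5 below it, at 0.254 CPM in SPF and 0.498 CPM in GF colon.

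The liver-type members Cyp3a11 and Ugt1a9, chosen after their values were seen, reached their highest values in the same pair of SPF libraries. Other liver-type members are not placed here. Cyp3a11, the main hepatic Cyp3a, had 0.824 CPM in SPF vancomycin ZT11 replicate 4 and 6.48 CPM in SPF PBS ZT23 replicate 2. Ugt1a9 had 7.12 CPM in that vancomycin library and 4.91 CPM in that PBS library. Each had the highest sum of the 6 hepatocyte markers for its treatment, 164 CPM and 252 CPM, and the SPF median was 11.96 CPM. In GF libraries the sum ran from 0.686 to 18.9 CPM. The part of liver RNA in the values of Cyp3a11 and Ugt1a9 was not tested.

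Levels between genes are compared per kilobase of exon, as the mean CPM per kb over all 64 libraries. Sult1a1, which sulfates phenols, led with 149 CPM per kb. Next came Cyp2c55, an arachidonic acid hydroxylase of the colon, with 144, Cyp2d34 with 139, Gsto1, an omega GST that reduces mixed disulfides and dehydroascorbate, with 134, and Gstp1, the pi-class GST, with 123 CPM per kb. Cyp4f14, which ends leukotriene B4 signalling by ω-hydroxylation, had 114 and Gstm1, a mu-class GST, 104 CPM per kb. Ugt2b34 (79.7), Sult1d1, which sulfates catecholamines (77.2), Cyp3a13 (74.4), Gstp2 (60.5), Sult1b1, which sulfates thyroid hormones (51.7), Ugt1a1, the bilirubin-conjugating UGT (49.7), Gsta4, which clears 4-hydroxynonenal (44.0), and Gstm2 (38.2 CPM per kb) made up the first 15. Each of the 4 families was among them, phase I and phase II enzymes alike. The Ugt1a transcripts share their last exons, and Cyp2c, Cyp2d, Gstm and Gstp genes have close copies, so how reads were split between such genes is uncertain.

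**Figure D1:**
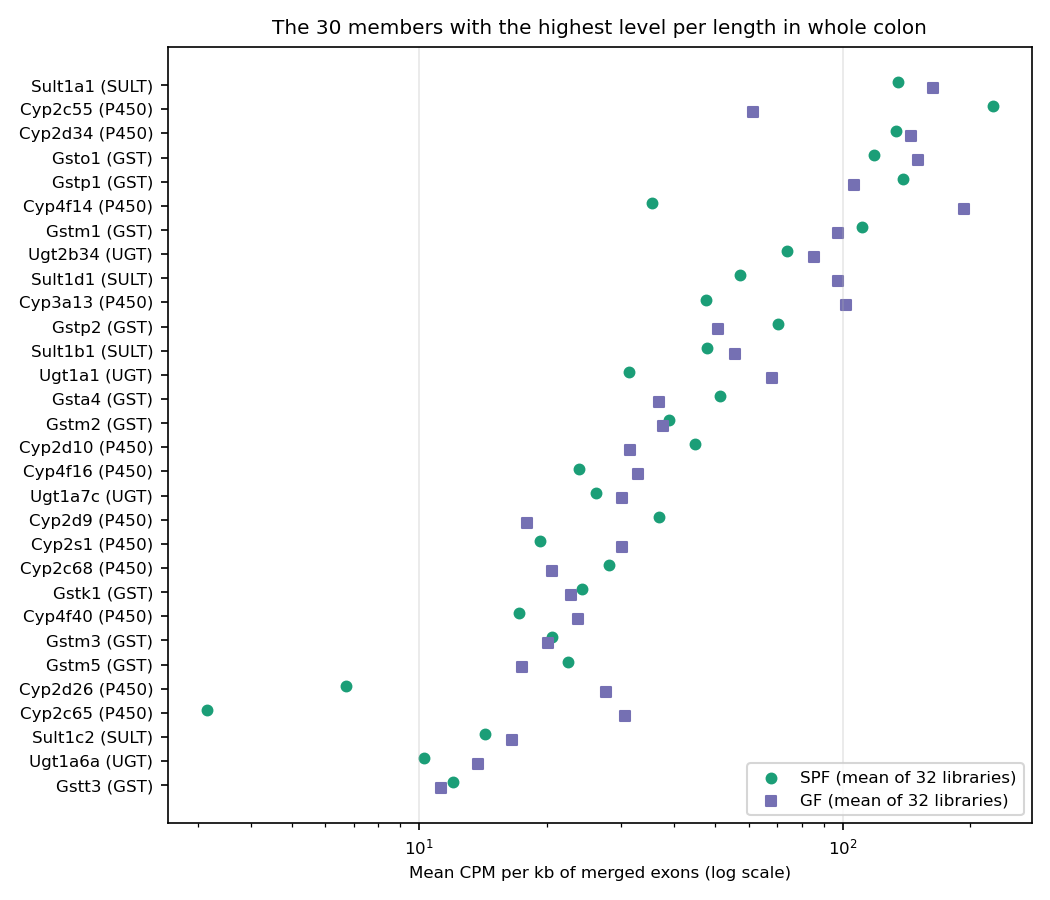
Mean CPM per kb of exon of the 30 members highest over all libraries, on a log axis, with SPF means as dots above GF means as squares. Cyp2c65 (9.70-fold), Cyp4f14 (5.46-fold) and Cyp2d26 (4.11-fold) lie farther right in GF, and Cyp2c55 (3.68-fold) lies farther right in SPF. The means are not adjusted for the colon position score, which differs between SPF and GF libraries.

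The tables of SPF and GF libraries were normalized separately, so levels set across them are given without a test. Summed over members, mean levels were 1824 CPM in SPF and 2201 CPM in GF colon for P450, 604 and 787 CPM for UGT, 1105 and 1028 CPM for GST, and 535 and 713 CPM for SULT genes. Single P450s differed far more than these sums. Cyp2c55 averaged 450.2 ± 391 CPM in SPF and 122 ± 107 CPM in GF colon (SD, n = 32 each), 3.68-fold higher in SPF. Cyp4f14 averaged 85.6 ± 66.6 CPM in SPF and 467 ± 223 CPM in GF colon. Cyp4b1, a fatty acid hydroxylase best known from lung, averaged 0.983 ± 0.379 CPM in SPF and 29.1 ± 44.5 CPM in GF colon, and Cyp2c65 averaged 6.08 ± 5.28 and 59.0 ± 72.1 CPM. Ugt1a1 had 69.6 ± 24.2 CPM in SPF and 151 ± 106 CPM in GF colon. Among expressed members, 5 were at least 2-fold higher in SPF (4 P450, 1 GST) and 10 at least 2-fold higher in GF colon (7 P450, 3 UGT). The share of all genes this far apart is not given here, so these counts are not read as particular to the members. The position score, which spans a wider range in GF libraries, moved with several of the members named above, as described further on. It was under 2.5 in 15 of 32 GF and 3 of 32 SPF libraries. Those 15 GF libraries averaged 31.4-fold the Cyp4b1, 14.4-fold the Cyp2c65 and 4.41-fold the Cyp2c55 of the other GF libraries. For Ugt1a1 and Cyp4f14 this was 2.50-fold and 1.88-fold. The SPF and GF means above are thus not of libraries of like position score. The Y-linked score differed as well, being over 4 in all 32 SPF and in 21 of 32 GF libraries.

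The members that varied most between libraries were partly genes near the detection limit. In SPF colon the SD of log2 CPM was largest for Cyp2e1 (2.52), the ethanol-oxidizing P450, which ran from 0 to 61.6 CPM around a median of 2.98. Cyp2c55 came next (2.01), with 12.97 to 1263 CPM around 377 CPM, followed by Ugt1a10 (1.95), Gsta2 (1.86) and Ugt2b5 (1.55). In GF colon the order was Cyp4b1 (2.67), Cyp2e1 (2.47), Ugt2b5 (2.41), Cyp2c65 (2.09) and Gsta2 (2.06). Of the 5 in SPF colon, Cyp2c55 was the one that also ranked among the 15 highest per kb.

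Vancomycin in SPF colon was tested against PBS within each time, averaged over the 4 times (edgeR, Benjamini-Hochberg adjustment over all genes tested, threshold 0.05). Of 72 members tested, 2 fell and 0 rose, 2.78% of the members, against 137 of 16938 genes, or 0.809%, in either direction with 0.378% higher and 0.431% lower. Both that fell were P450s. Cyp2s1 (ENSMUSG00000040703), a P450 of surface epithelia, ranged from 51.8 CPM over a median of 73.8 to 122 CPM in vancomycin libraries, and from 74.9 over 115 to 159 CPM in PBS libraries. The 2 ranges overlapped, and 9 of 16 vancomycin libraries lay below the lowest PBS library. At ZT5 the vancomycin libraries had 81.4, 83.7, 63.1 and 56.3 CPM and the PBS libraries 141, 121, 129 and 107 CPM, with no overlap. Its mean was 77.1 ± 18.3 CPM with vancomycin and 113 ± 20.8 CPM with PBS (SD, n = 16 each), a log2 fold change of -0.56 ± 0.10 (SE; edgeR adjusted p = 0.0154).

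Cyp2c23 (ENSMUSG00000025197), an arachidonic acid epoxygenase studied mainly in kidney, was the other member that fell. It was scarce in both treatments, with 0.433 to 2.84 CPM (median 1.25) in vancomycin libraries and 0.906 to 5.36 CPM (median 2.49) in PBS libraries. The groups did not overlap at ZT5 or ZT23 and overlapped at ZT11 and ZT17. The log2 fold change was -0.94 ± 0.20 (SE; edgeR adjusted p = 0.0245). Cyp2c69, a Cyp2c gene 3rd by p, had 3.36 to 19.8 CPM (median 12.7) with vancomycin and 10.2 to 26.3 CPM (median 19.02) with PBS. Its log2 fold change of -0.66 ± 0.18 did not pass the threshold (edgeR adjusted p = 0.065).

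Cyp2c55 (ENSMUSG00000025002) had the widest spread of the expressed Cyp2c genes in SPF colon and is given library by library. With vancomycin it had 724, 19.9, 596 and 17.5 CPM at ZT5, 43.4, 19.5, 1199 and 72.4 CPM at ZT11, 249, 138, 396 and 165 CPM at ZT17, and 12.97, 117, 21.4 and 308 CPM at ZT23. With PBS it had 991, 1252, 1006 and 591 CPM at ZT5, 951, 283, 875 and 1263 CPM at ZT11, 228, 285, 477 and 367 CPM at ZT17, and 429.5, 418, 507 and 386 CPM at ZT23. Vancomycin libraries covered a wide range, from 12.97 to 1199 CPM, 10 of 16 were below the lowest PBS library, and at ZT23 the groups did not overlap. The log2 fold change of -1.32 ± 0.52 did not pass the threshold (edgeR adjusted p = 0.213). Leaving out SPF vancomycin ZT11 replicate 3, the library with 1199 CPM, gave -2.04 with an edgeR adjusted p of 0.0131. That library holds the highest vancomycin value of Cyp2c55, so its removal must lower the fold change. The fit without it is therefore not counted as support for a fall. Summed over the Cyp2c genes, vancomycin libraries had 330.5 ± 337 CPM and PBS libraries 735 ± 345 CPM (SD, n = 16 each).

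**Figure D2:**
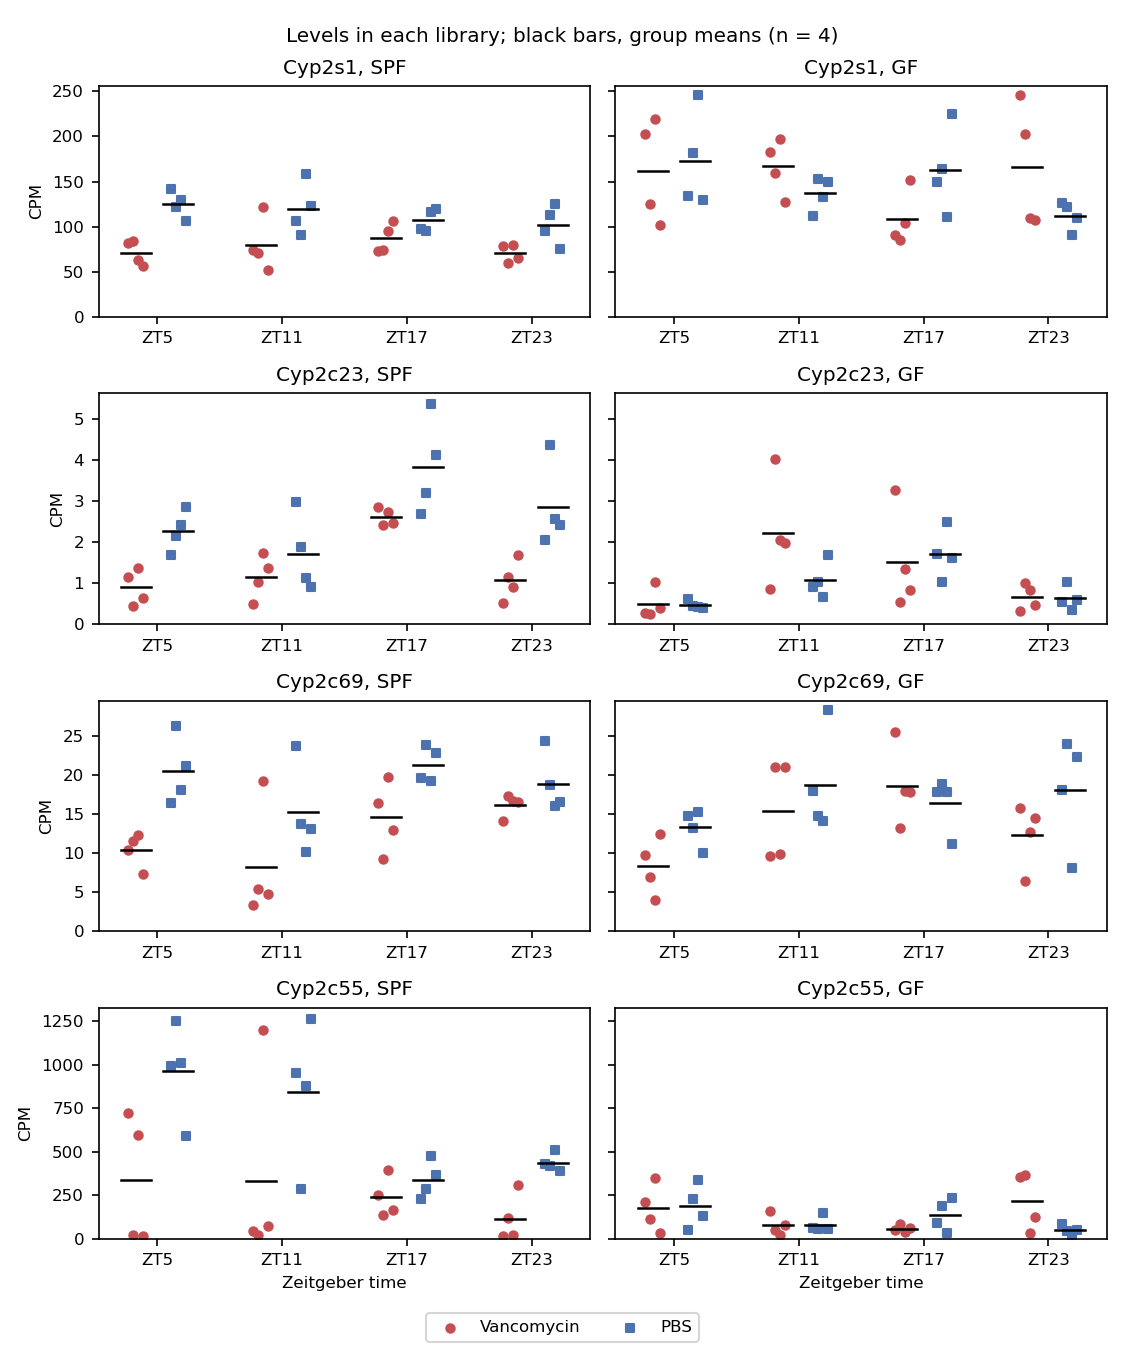
CPM of Cyp2s1, Cyp2c23, Cyp2c69 and Cyp2c55 in each library by zeitgeber time, SPF on the left and GF on the right, with vancomycin as circles left of PBS as squares and black bars for the mean of 4 libraries. In SPF colon 10 of 16 vancomycin libraries lie below every PBS library for Cyp2c55, and in GF colon the treatments overlap for each gene shown.

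Start regions are shown for Cyp2s1, Cyp2c55 and Cyp2c69, whose values with vancomycin are given above, and for Cyp2c68, a close copy of Cyp2c69 that moved with time of day. Windows run from 250 bases before to 50 bases after the annotated start (RefSeq, build GRCm38.p6), 5′ to 3′ on the gene's strand. Capitals mark the core of the xenobiotic response element, GCGTG, or its reverse complement, the letters bound by the aryl hydrocarbon receptor with its partner Arnt. No entry for Cyp2c23 was in the table used.
Cyp2s1 (chr7:25816476-25816775, minus strand): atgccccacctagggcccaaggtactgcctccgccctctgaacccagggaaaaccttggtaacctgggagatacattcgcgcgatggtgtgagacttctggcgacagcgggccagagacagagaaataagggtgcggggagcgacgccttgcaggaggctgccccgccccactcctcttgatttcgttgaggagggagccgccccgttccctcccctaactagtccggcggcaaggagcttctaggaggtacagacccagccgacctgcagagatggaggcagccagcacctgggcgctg
Cyp2c55 (chr19:39006769-39007068, plus strand): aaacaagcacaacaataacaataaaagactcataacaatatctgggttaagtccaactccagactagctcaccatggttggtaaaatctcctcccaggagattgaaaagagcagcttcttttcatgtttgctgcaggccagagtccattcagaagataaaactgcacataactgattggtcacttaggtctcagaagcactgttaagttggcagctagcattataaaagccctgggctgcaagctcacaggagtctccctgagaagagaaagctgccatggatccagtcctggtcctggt
Cyp2c68 (chr19:39741052-39741351, minus strand): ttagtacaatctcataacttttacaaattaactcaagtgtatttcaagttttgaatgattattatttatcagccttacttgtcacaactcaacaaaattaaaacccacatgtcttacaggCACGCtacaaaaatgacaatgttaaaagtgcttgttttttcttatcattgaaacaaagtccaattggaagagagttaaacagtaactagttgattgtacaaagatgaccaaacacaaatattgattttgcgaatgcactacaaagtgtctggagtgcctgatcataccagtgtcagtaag
Cyp2c69 (chr19:39886720-39887019, minus strand): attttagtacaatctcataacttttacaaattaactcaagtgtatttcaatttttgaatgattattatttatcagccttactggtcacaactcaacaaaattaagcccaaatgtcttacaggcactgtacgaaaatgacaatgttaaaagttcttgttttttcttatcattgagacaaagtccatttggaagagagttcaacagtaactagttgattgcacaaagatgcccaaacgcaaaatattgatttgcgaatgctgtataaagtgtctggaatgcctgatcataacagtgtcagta
Over the windows of Cyp2c68 and Cyp2c69, 277 of 299 aligned columns were identical (92.6%), 3 of the others being gaps. The core in Cyp2c68 starts at position -130 from the gene start, and the other 3 windows hold no match. Searched on both strands, GCGTG occurred in 20.8% of 130 member windows, in 26.7% of the 75 windows of expressed members and in 32.4% of all 32851 windows. Among 34 windows of members called for time of day in SPF colon the share was 38.2%. These matches describe letters and not binding.

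Across all members tested, values were more often negative than not. In SPF colon 53 of 72 had a negative log2 fold change with a median of -0.18, beside a median of -0.004 over all genes tested. By family, 23 of 35 P450 (median -0.13), 10 of 11 UGT (-0.24), 16 of 21 GST (-0.17) and 4 of 5 SULT genes (-0.28) were negative. An unadjusted p under 0.05 was reached by 27 of 72 members, beside 16.2% of all genes. They included the theta GSTs Gstt1 (-0.44 ± 0.13), Gstt2 (-0.22 ± 0.07) and Gstt3 (-0.31 ± 0.09), which act on small halogenated compounds, and Gsta4 (-0.29 ± 0.09; log2 ± SE, edgeR adjusted p 0.102 to 0.108). Positive values in this group belonged to Cyp3a13 (0.48 ± 0.17; adjusted p = 0.171), Cyp2d10 (0.41; adjusted p = 0.191), Gsto1 (0.16) and the scarce Gsta2 (1.18). Summed, the Gstt genes had 82.0 ± 14.5 CPM with vancomycin and 99.8 ± 11.7 CPM with PBS (SD, n = 16 each).

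**Figure D3:**
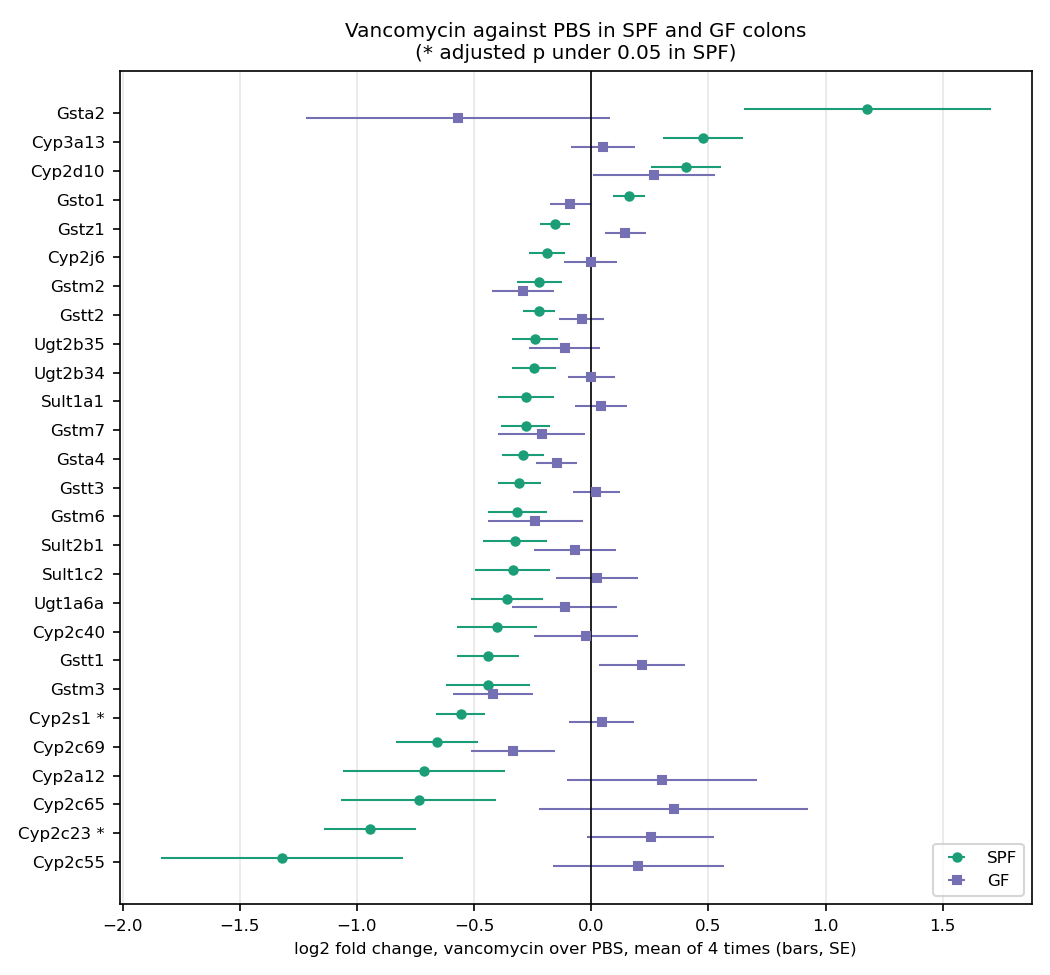
Log2 fold change of vancomycin over PBS with its standard error for the 27 members with an unadjusted p under 0.05 in SPF colon, SPF as circles above GF as squares, with asterisks on genes past the adjusted threshold. Cyp2s1 and Cyp2c23 carry asterisks, in SPF only, and most SPF values lie left of 0.

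Markers of cell types were read in the same libraries. The summed epithelium markers had a median of 11210 CPM (8399 to 14890) in SPF vancomycin libraries and 13100 CPM (8726 to 16500) in SPF PBS libraries, and B cell and follicle markers 374 CPM (18.3 to 641) and 168 CPM (30.7 to 635). T cell markers had a median of 69.9 CPM (9.21 to 287) with vancomycin and 25.7 CPM (4.84 to 162) with PBS, macrophage markers 150.1 and 108.0 CPM, and smooth muscle markers 8620 and 11340 CPM. The part of these 3 lists in the calls was not tested. With the epithelium score as a covariate, neither call held: Cyp2s1 had -0.45 (edgeR adjusted p = 0.0862) and Cyp2c23 had -0.81 (adjusted p = 0.109). With the B cell score as a covariate both held (adjusted p = 0.00615 and 0.0387). Leaving out SPF vancomycin ZT11 replicate 3 alone gave 10 members in place of 2, all lower: Cyp2s1, Cyp2c23, Cyp2c55, Cyp2c69, Gsta4, Gstt1, Gstt2, Gstt3, Gstm3 and Ugt1a6a. The share of all genes that passed in that fit is not given here, so the rise is not read as particular to the members. The library left out had the lowest B cell score of the 32 SPF libraries, 1.00 as mean log2 CPM. It also had the highest sum of small intestine markers among SPF vancomycin libraries, 226 CPM.

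At single times, 0 members passed at ZT5, ZT11, ZT17 and ZT23 in SPF colon with edgeR, where 0.0827% (0.0177% higher), 0%, 0.319% and 0% of all genes passed. Before adjustment 8, 21, 6 and 11 of 72 members were below 0.05, beside 14.2%, 9.86%, 8.65% and 7.34% of all genes. DESeq2 made 5 member calls over the 4 times, and edgeR made 10 once SPF vancomycin ZT11 replicate 3 was left out, most of them at ZT11. The shares of all genes in these fits are not given here. The size of the vancomycin effect was then compared between times by an interaction test, which 1 of 72 members passed in SPF colon, as did 0.36% of all genes. That member was Cyp2r1, the vitamin D 25-hydroxylase, which was under the limit for an expressed gene. At ZT5 it had 0.878, 0.505, 1.01 and 0.131 CPM with vancomycin and 0.123, 0.0478, 0.111 and 0 CPM with PBS, all vancomycin libraries being higher. At ZT17 it had 0.215, 0.111, 0.129 and 0 CPM with vancomycin and 1.19, 0.472, 0.638 and 0.604 CPM with PBS, all vancomycin libraries being lower. At ZT11 and ZT23 the treatments overlapped. The edgeR adjusted p was 0.012 and stayed between 0.000396 and 0.0367 under each alternative run. The next members, Ugt2b35 (adjusted p = 0.23) and Sult2b1, which sulfates cholesterol (0.292), did not pass.

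In GF colon, 0 of 77 members passed for vancomycin over the 4 times with edgeR, as did 0% of all genes, 7 were below 0.05 before adjustment (3.96% of all genes), and DESeq2 called 0. The members' median log2 fold change was 0.03, beside 0.007 over all genes. The smallest p belonged to Cyp2u1, a fatty acid ω-hydroxylase (0.54 ± 0.14, unadjusted p = 0.000882, adjusted p = 1), Cyp4f13 (0.26 ± 0.09) and Gsta5 (-0.96 ± 0.37). Cyp2s1 ran from 84.9 CPM over 139.6 to 246 CPM in GF vancomycin libraries and from 90.8 over 134 to 246 CPM in GF PBS libraries, ranges that all but coincide. Cyp2c55 had a median of 80.3 CPM (17.8 to 365) with vancomycin and 70.5 CPM (18.7 to 339) with PBS in GF colon. No member passed at any single time (0% of all genes), and DESeq2 called 0. Before adjustment 2, 4, 8 and 17 of 77 members were below 0.05 at ZT5, ZT11, ZT17 and ZT23, beside 3.58%, 4.91%, 4.47% and 12.1% of all genes. At ZT23 the position scores were -1.22, -2.94, 3.98 and 0.99 with vancomycin and 3.16, 4.18, 3.66 and 3.63 with PBS. The Y-linked scores there were 0.43, 1.18, -0.27 and 6.04 against 5.8, 5.88, 5.9 and 1.36, so the treatments were not balanced for either. Cyp4b1, Cyp2c55 and Cyp2c65, below 0.05 at ZT23, also moved with the position score, as described further on. The interaction test was passed by 0 members with edgeR (0% of all genes) and with DESeq2, and 13 were below 0.05 before adjustment, beside 8.29% of all genes. Adipocyte markers had a median sum of 191 CPM (18.3 to 955) with vancomycin and 75.4 CPM (14.7 to 560) with PBS in GF libraries, and with their score as a covariate 0 members passed as well.

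The difference between both vancomycin effects was itself tested in 1 fit of 64 libraries. None of 72 members passed with edgeR or DESeq2 (0% of 16604 genes), and 13 had an unadjusted p under 0.05, beside 9.94% of all genes. The SPF effect minus the GF effect was -0.73 ± 0.19 for Cyp2u1 (adjusted p = 0.229), -1.20 ± 0.33 for Cyp2c23 (0.229) and -0.61 ± 0.18 for Cyp2s1 (0.257; log2 ± SE). A vancomycin effect on Cyp2s1 or Cyp2c23 that differs between SPF and GF colon was therefore not shown at this threshold.

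Time of day was compared in SPF colon. Over both treatments, 30 of 72 members (41.7%) passed the F test across the 4 times, beside 21.1% of all genes. They were 12 of 35 P450, 5 of 11 UGT, 11 of 21 GST and 2 of 5 SULT genes. With the colon position score as a covariate 11 of the 30 passed, 8 P450, 1 UGT, 2 GST and 0 SULT genes. How many of all genes passed in that fit is not given here, so the drop is not read as particular to the members. The lowest mean fell at ZT11 for 21 of the 30, and the highest at ZT23 for 13 and at ZT17 for 12. Of the 3566 genes that passed in all, 30.3% had their lowest mean at ZT11, 25.4% their highest at ZT23 and 18.6% their highest at ZT17. The ZT11 libraries had a lower position score than the others, as given further on.

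Among P450s, Cyp4f40 had the smallest p. Its mean was 48.0 ± 9.82, 28.4 ± 6.68, 39.2 ± 7.03 and 55.3 ± 11.2 CPM at ZT5, ZT11, ZT17 and ZT23 (SD, n = 8 each; edgeR adjusted p = 8.48e-05). The 8 ZT23 libraries had 42.7 to 72.4 CPM and the 8 ZT11 libraries 15.6 to 37.5 CPM, without overlap. Cyp2d26 increased at each step, with means of 6.45 ± 1.95, 9.29 ± 4.74, 13.3 ± 4.65 and 18.9 ± 8.81 CPM (adjusted p = 0.0022). Cyp4f14 was high at both ZT11 (109 ± 76.3 CPM) and ZT23 (132 ± 84.6 CPM) and low at ZT5 (49.9 ± 23.2 CPM) and ZT17 (50.9 ± 12.2 CPM; adjusted p = 0.0139). Cyp2c68 (23.2 ± 12.3 CPM at ZT11 and 63.2 ± 10.6 CPM at ZT17), Cyp2c67, Cyp2d12, Cyp2d13 and Cyp4v3 were lowest at ZT11, Cyp4f16 was lowest at ZT5, and Cyp2j9 was highest at ZT11, at 3.39 ± 0.528 CPM. Cyp2c23, lower with vancomycin, peaked at ZT17 with 3.22 ± 1.02 CPM (adjusted p = 0.00453).

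Of the conjugating enzymes, Ugt1a1 had 67.2 ± 15.9, 64.9 ± 21.9, 48.6 ± 17.6 and 97.7 ± 10.5 CPM (SD, n = 8 each; edgeR adjusted p = 0.00614). Its 8 ZT23 libraries, at 79.2 to 110.2 CPM, lay above all 8 ZT17 libraries, at 25.8 to 75.7 CPM. Every alpha, mu and pi GST that passed was lowest at ZT11: Gsta4 with 47.8 ± 14.7 CPM there and 82.0 ± 17.3 CPM at ZT23, Gsta3 with 6.46 ± 3.09 and 19.3 ± 3.88 CPM, and Gstp1 with 179 ± 38.4 and 248 ± 42.0 CPM. Gstm1 had 127 ± 51.1 CPM at ZT11 and its highest mean, 198 ± 21.2 CPM, at ZT17. The same low at ZT11 was seen in Gsta1 (3.36 ± 1.57 CPM), Gstm2 (50.9 ± 16.4), Gstm6 (10.6 ± 4.12), Gstp2 (60.5 ± 16.96), Gstt2 (30.5 ± 5.98) and Gsto1 (185 ± 24.03, with 265 ± 48.1 CPM at ZT17). Ugt1a7c (75.2 ± 30.1 CPM at ZT11) and Ugt2b34 (259.6 ± 66.5) shared it, as did Sult2b1 (24.2 ± 7.48). Of these genes with a low at ZT11, only Gsta3 and Gsta4 kept the call with the position score as a covariate. The same held without the ZT11 libraries. Sult1b1 was highest at ZT5, at 159 ± 31.1 CPM, and lowest at ZT17, at 111 ± 22.5 CPM (adjusted p = 0.0211). Gstk1, a GST of mitochondria and peroxisomes, also ran against the majority, with 41.0 ± 10.9 CPM at ZT5 and 27.9 ± 5.79 CPM at ZT23 (adjusted p = 0.0456).

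**Figure D4:**
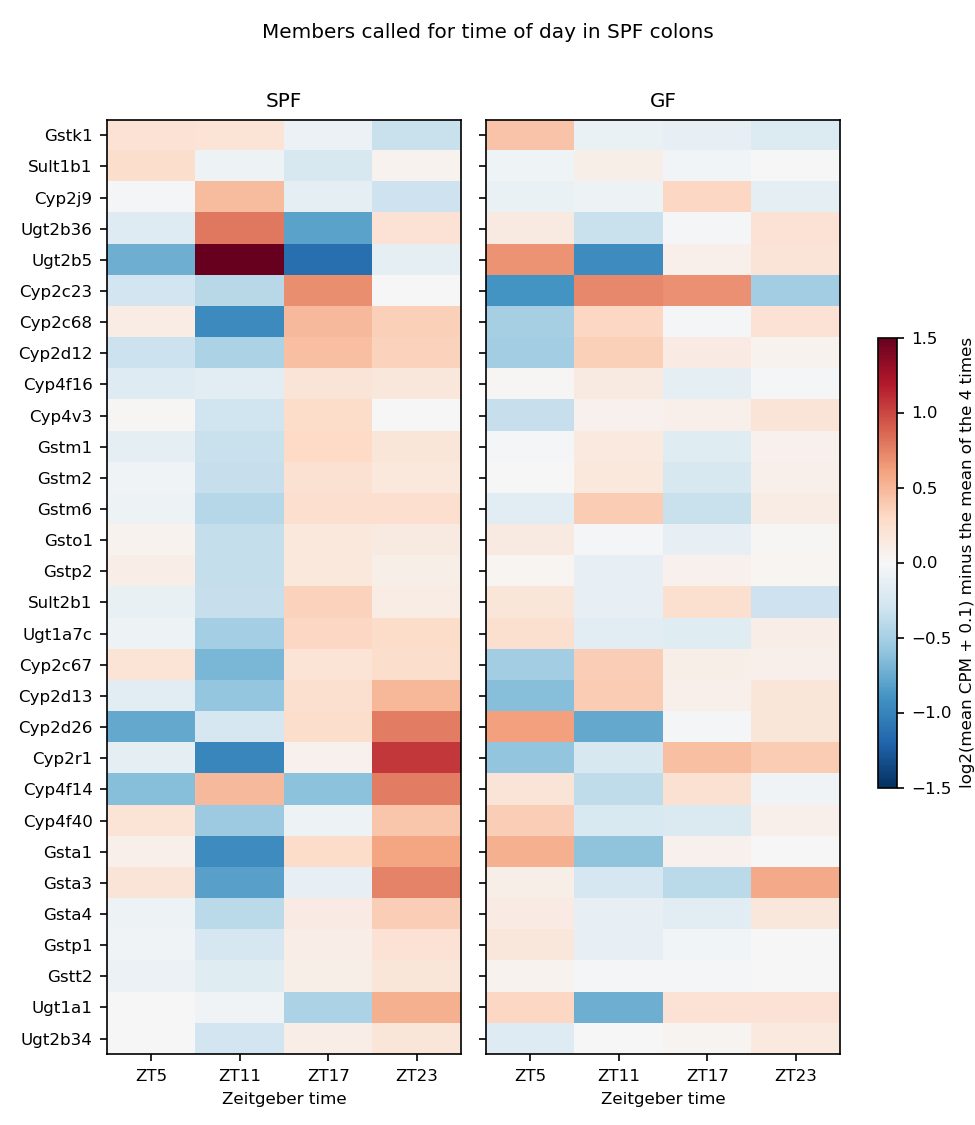
Heat map of the 30 members that passed for time of day in SPF colon, as log2 of mean CPM plus 0.1 minus the mean of the 4 times, SPF on the left and GF on the right, with colour limits at 1.5 in both directions. In SPF colon most genes are lowest at ZT11, and Ugt2b5 is high there.

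The ZT11 libraries also differed in colon position. Their median position score was 3.15, against 4.03 at ZT5, 3.75 at ZT17 and 3.81 at ZT23. Without the ZT11 libraries 11 of the 30 members passed (6 P450, 1 UGT, 3 GST and 1 SULT), a setting chosen after the data were seen. Of these, 9 also passed with the score as a covariate: Cyp2c23, Cyp2d13, Cyp2d26, Cyp2r1, Cyp4f14, Cyp4f40, Gsta3, Gsta4 and Ugt1a1. The share of all genes that passed in either setting is not given here. For 17 members neither setting kept the call, among them Ugt2b5, with 3.45 ± 3.01 CPM at ZT11 and 0.303 ± 0.158 CPM at ZT17, and Ugt2b36, which is also highest at ZT11.

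In GF colon 2 of 77 members passed for time of day (2.60%), beside 0.991% of all genes. Cyp2u1 had 5.19 ± 1.57, 7.23 ± 2.60, 10.7 ± 5.01 and 5.04 ± 0.885 CPM at ZT5, ZT11, ZT17 and ZT23 (SD, n = 8 each; edgeR adjusted p = 0.00824). Cyp2c23 had 0.469 ± 0.251, 1.65 ± 1.10, 1.60 ± 0.901 and 0.639 ± 0.281 CPM (adjusted p = 0.0261). This call of Cyp2c23 was lost with the position score (edgeR adjusted p = 0.0837) or the adipocyte score (0.0521) as a covariate and with the replicate number as a block (0.0532). Ugt1a1 ran from 51.6 to 480.3 CPM among the GF libraries of ZT5 alone. Of the 15 GF libraries with a low position score, 6 were of ZT5, 2 of ZT11, 4 of ZT17 and 3 of ZT23, and without them 0 of 73 members passed for time. Fewer libraries entered that fit, and its share of all genes is not given here. A difference in time of day between SPF and GF colon was not tested.

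Members also moved with the position score itself. The slope of log2 CPM per unit of score passed for 38 of 77 members in GF colon (49.4%), beside 17.3% of all genes. Of the 38, 21 were higher in libraries with a distal score (9.4% of all genes) and 17 lower (7.95%). By family these were 21 of 38 P450 (12 higher, 9 lower), 5 of 12 UGT (all lower), 11 of 22 GST (9 higher, 2 lower) and 1 of 5 SULT genes. Lower in libraries with a distal score were Cyp4b1 (-1.01 ± 0.08 log2 per unit; edgeR adjusted p = 2.51e-09), Cyp2c65 (-0.80 ± 0.08), Cyp2c55 (-0.46 ± 0.05) and Ugt1a1 (-0.32 ± 0.03). Also lower were Ugt2b5 (-0.80), Cyp2c66 (-0.76), Cyp2d26 (-0.49), Ugt2b36 (-0.25), Cyp4f14 (-0.21), Ugt1a6a (-0.18), Sult1d1 (-0.17), Gstk1 (-0.15), Cyp2j6 (-0.12) and Cyp2s1 (-0.10). Higher in them were Cyp2c68 (0.34 ± 0.03), Cyp2c67 (0.37), Cyp2a12 (0.37), Cyp2d13 (0.34) and Gstm1 (0.17 ± 0.03). Slopes from 0.07 to 0.28 belonged to Cyp2c40, Cyp2c69, Cyp2d12, Cyp2d22, Cyp2d34, Cyp2j13, Gsta3, Gstm2, Gstm4, Gstm6 and Gstm7. The small intestine marker sum ran from 33.0 to 1383 CPM in GF libraries and from 37.1 to 276 CPM in SPF libraries, and its part in these slopes was not tested.

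Split at the gap, some of these genes separated the GF libraries outright. They had been called for their slope on this same score, so the split adds no support to the slopes. The share of all genes that separate in this way is not given here. The 15 libraries under 2.5 had 6.41 to 161.5 CPM of Cyp4b1 and the 17 others 0.383 to 5.99 CPM. Cyp2c65 had 22.2 to 233 CPM under 2.5 and 2.65 to 18.4 CPM above, and Cyp2c55 had 82.4 to 365 CPM and 17.8 to 81.4 CPM. Cyp2c68 ran the other way, with 8.43 to 28.1 CPM under 2.5 and 32.4 to 72.7 CPM above. Cyp2c66, higher under 2.5, and Cyp2f2, lower there, did not overlap either. Cyp4f14, with means of 621 and 331 CPM, and Ugt1a1, with 222 and 88.8 CPM, overlapped between the ranges. These ranges are not groups of the study, and the slope passed for 2 members (Ugt1a1, Cyp2d13) within the libraries under 2.5 and for 0 within the others. Shares of all genes in those fits are not given here. The sides also differed in other features. Most GF libraries with a Y-linked score of 1.36 or less were under 2.5. The adipocyte score ran from 2.55 to 6.43 as mean log2 CPM under 2.5 and from -1.42 to 4.75 above. The part of these features in the split was not tested.

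**Figure D5:**
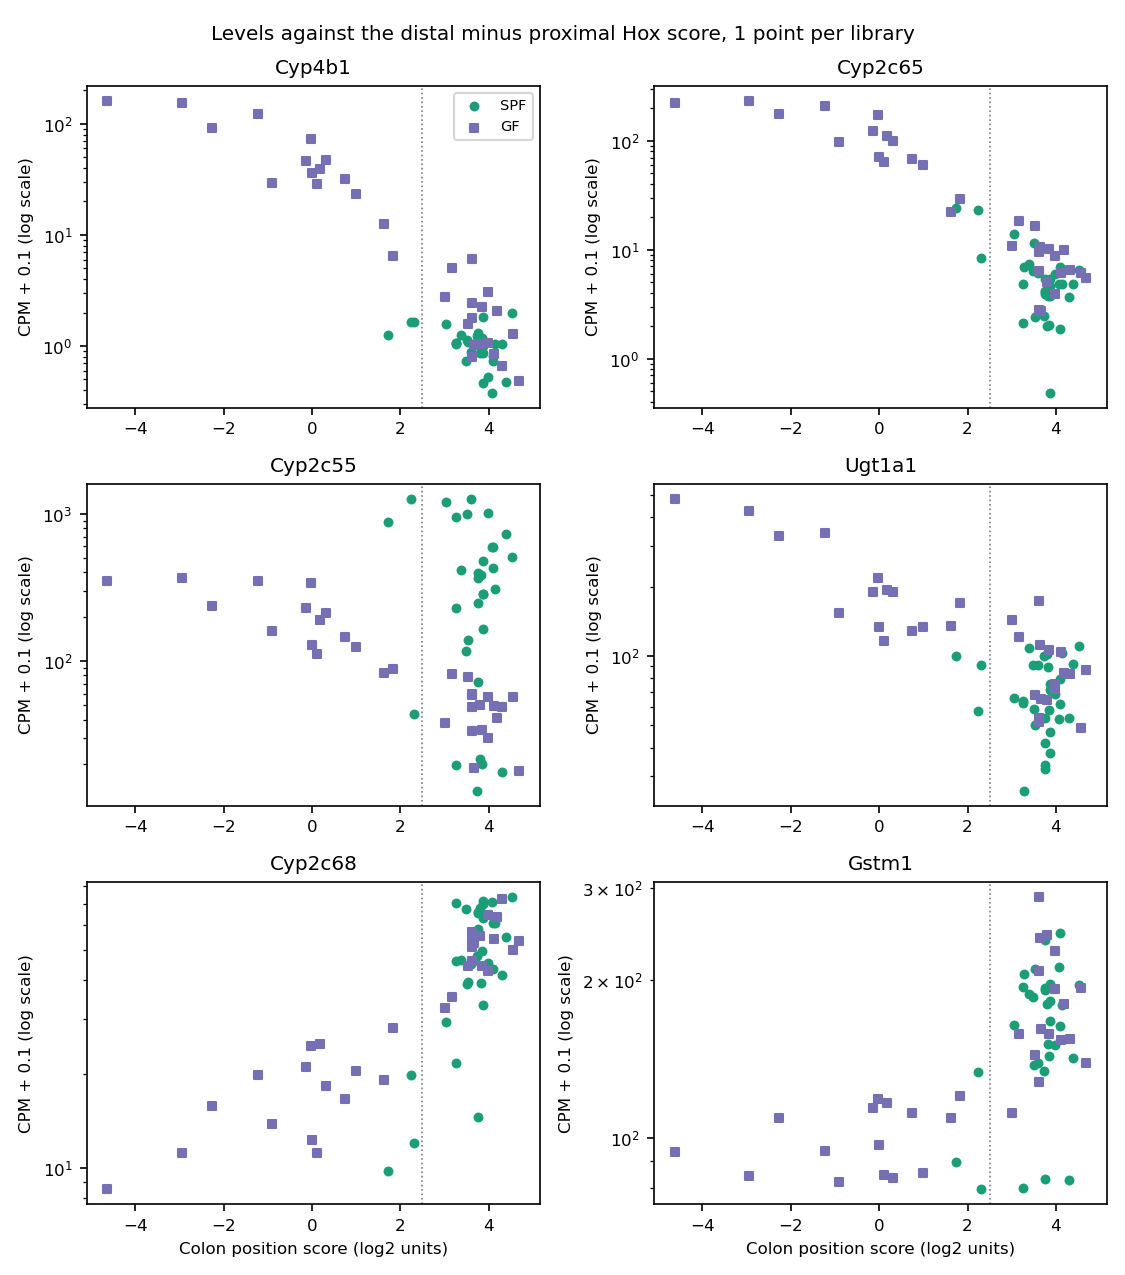
CPM plus 0.1, on a log axis, of Cyp4b1, Cyp2c65, Cyp2c55, Ugt1a1, Cyp2c68 and Gstm1 in each library against its colon position score, with a dotted line at 2.5. GF libraries fall on both sides of the line, and Cyp4b1, Cyp2c65, Cyp2c55 and Cyp2c68 do not overlap between the sides there.

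In SPF colon, where the score varied less, the slope passed for 6 of 72 members (8.33%), beside 2.48% of all genes (0.773% higher, 1.71% lower): Ugt2b5 (-2.16 ± 0.39), Cyp4f14 (-1.09 ± 0.28), Cyp2c67 (0.81 ± 0.17), Cyp2d12 (0.79 ± 0.21), Cyp2c68 (0.65 ± 0.16) and Gstm6 (0.46 ± 0.13; log2 per unit ± SE). Each of these 6 had the same sign in GF colon. Single ZT11 libraries decided this count: 1 member passed without SPF PBS ZT11 replicate 2 or replicate 3, and 3 passed without SPF vancomycin ZT11 replicate 1 or SPF PBS ZT11 replicate 4. Cyp2c55, with a slope of -0.46 in GF colon, had 0.03 ± 0.75 in SPF colon (edgeR adjusted p = 0.993), and the difference between the slopes was not tested.

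Partner genes, the sensors, cofactor suppliers, transporters and other detoxification enzymes of the same pathways, were read from a list of their own. For vancomycin in SPF colon 2 of 97 passed (2.06%), beside 0.809% of all genes. Cyp27a1, the sterol 27-hydroxylase, rose by 0.69 ± 0.17 (edgeR adjusted p = 0.0465), with 34.7 ± 12.8 CPM under vancomycin and 22.4 ± 9.59 CPM under PBS. Vdr, the vitamin D receptor, fell by 0.34 ± 0.09 (adjusted p = 0.0482), with 233 ± 41.2 CPM and 298 ± 60.6 CPM (SD, n = 16 each). In GF colon 0 of 97 partners passed (9 below 0.05 before adjustment, beside 3.96% of all genes), and for the difference 0 of 96 (11 below 0.05, beside 9.94%), with edgeR. For time of day, 36 of 97 passed in SPF colon (37.1%), beside 21.1% of all genes. Among the 36 were 3 of 4 PAR bZIP factors, 8 of 17 cofactor suppliers and 17 of 39 other detoxification enzymes. In GF colon 7 of 97 passed for time of day (7.22%), beside 0.991% of all genes. The 5 of smallest p were Dbp, Akr1c19, Tef, Me1 and Slc26a2, a sulfate carrier, in SPF colon and Dbp, Nfil3, Tef, Ces1d and Ephx2 in GF colon. Dbp averaged 7.79, 40.1, 138 and 37.7 CPM at ZT5, ZT11, ZT17 and ZT23 in SPF colon and 7.82, 26.1, 159 and 16.04 CPM in GF colon. The D-box, TTANGTAA on either strand, is bound by Dbp and Tef. It was in none of the 34 windows, of 25 genes, of members that passed for time in SPF colon. It was in 3.08% of 130 member windows, in 1.33% of the 75 windows of expressed members and in 2.32% of all windows. At such a share 34 windows are too few to tell an absence from the share of all windows. The E-box, CACGTG, was in 1.54% of the 130 member windows, 2.67% of the 75 of expressed members and 2.94% of the 34. Of all windows, 7.15% held it.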

How the data were processed

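Per the submitters' processing notes, reads were handled with Trim Galore 0.6.2, cutadapt 3.5 and Salmon against GRCm39. Per the labels' protocols, 1000 ng of RNA was poly(A)-selected (NEBNext Ultra II) and sequenced as single reads of 75 cycles. The 2 deposited tables, of 32 SPF and 32 GF libraries, were taken to hold estimated counts for each gene, although their names call the values normalized. The annotation, the use of strand and the summing of transcripts were not given in the sources used here. Columns were tied to libraries through their names, with 0 columns of other samples.

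Estimated counts were rounded, and a gene entered the tests where 4 or more libraries had 10 or more (16938 SPF, 16951 GF genes), among them 72 and 77 of the 133 genes described. The tests were edgeR 4.0.16 quasi-likelihood fits (glmQLFit, glmQLFTest, TMM scaling, R 4.3.3) of each table, with 1 mean per group of treatment and time; tests are two-sided, with Benjamini-Hochberg adjustment over all genes tested and a threshold of 0.05. Time of day and interaction are F tests of 3 contrasts. The position slope adds the score as a covariate. The SPF and GF effects were compared in 1 fit over 16604 genes. The standard error is the log2 fold change over the root of F, unreliable near 0. CPM use TMM library sizes. Exon lengths came from GENCODE vM21 on GRCm38 for 132 of the 133 genes, Cyp2d13 lacking one, and promoter windows from RefSeq GRCm38.p6 for 112 genes. DESeq2 1.42.0 was an alternative, and the steps were tested on simulated data. Figures used matplotlib 3.10.9.

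The genes and lists were chosen with earlier results of these data known. Named members are those past the threshold (up to 30 by p), the 3 of smallest p where fewer passed, the 15 highest per kb, the 5 most variable per table, and up to 5 partners per comparison; a few members and liver-type genes beside them, and Cyp2c55 and Cyp2c68 for their start regions, were chosen after their values were seen. Deviations of vancomycin and PBS libraries of the same replicate number correlated with a median of 0.024 in SPF and -0.013 in GF libraries. For pairs of other numbers the medians were 0.002 and -0.008. In SPF libraries 5 of 16 same-number pairs and 8 of 48 other pairs were over 0.1. The number was not used to pair libraries.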

Additional observations from a re-analysis of the deposited data

Results flagged for a closer look

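In groups of 4 libraries, or of the 8 of a time, a value was singled out where its gap to the nearest other was large for the range, which chance gives in about 1 in 20 groups. Of 155 sets of 4 libraries 9 had such a value, where 1 in 20 would be 7.75, and of 132 sets of 8 libraries 10 had one, where 1 in 20 would be 6.6. Against the other 3 of its group, Cyp2c69 was high in SPF vancomycin ZT11 replicate 3 (19.2 CPM), Cyp2j6 was low in SPF vancomycin ZT17 replicate 2 (19 CPM) and Gsta5 was high in SPF vancomycin ZT17 replicate 4 (2.17 CPM). In GF colon, Cyp2c65 was high in vancomycin ZT11 replicate 1 (96.1 CPM) and PBS ZT11 replicate 3 (67.9 CPM), both with a position score under 2.5. Sult2b1 was high in GF vancomycin ZT5 replicate 1 (70.7 CPM), Cyp2d40 in GF PBS ZT5 replicate 3 (1.04 CPM) and Cyp4f13 in GF PBS ZT17 replicate 2 (61.3 CPM), and Cyp2c69 was low in GF PBS ZT17 replicate 4 (11.2 CPM).

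Against the other 7 of its time, SPF vancomycin ZT17 replicate 2 was low in Cyp2c68 (39.4 CPM) and Gstt2 (27.7 CPM), and SPF vancomycin ZT5 replicate 4 was low in Gstp2 (43.1 CPM). SPF PBS ZT23 replicate 1 was high in Gstk1 (40.9 CPM) and Gstp2 (106.0 CPM). Ugt2b5 was high in SPF PBS ZT23 replicate 2 (2.5 CPM), Gstm6 in SPF PBS ZT5 replicate 4 (23.1 CPM) and Cyp4f16 in SPF PBS ZT11 replicate 1 (91.5 CPM). Cyp2c23 was high in GF vancomycin ZT5 replicate 3 (1.02 CPM) and GF vancomycin ZT11 replicate 2 (4.03 CPM).

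The vancomycin effect on Cyp2r1 in SPF colon differed between times (edgeR interaction, adjusted p = 0.012). The log2 ratio of mean CPM was 3.17 at ZT5 and -2.68 at ZT17, with all 4 vancomycin libraries on 1 side of the 4 PBS libraries at each of these times.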

How the results depend on the processing

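The vancomycin count in SPF colon (2 members) became 7 with DESeq2 and 0 with the epithelium score as a covariate, and ran from 2 to 10 when single libraries were left out, 10 without SPF vancomycin ZT11 replicate 3. Single-time calls (0) became 5 with DESeq2 and ran from 0 to 10, with 1 without PBS ZT5 replicate 4, ZT11 replicate 1 or 4, or ZT17 replicate 1. The SPF time count (30) became 11 with the position score as a covariate and 11 without ZT11; the SPF slope count (6) became 10 with the B cell score as a covariate and ran from 1 to 6. The GF time count (2) became 1 with the position score, 1 with the adipocyte score, and 0 without the 15 libraries under 2.5, where fewer samples enter. The GF slope count (38) became 22 with the B cell score, 0 within scores of 2.5 or more and 2 within scores under 2.5. Within scores under 2.5 the slope turned to -0.009 for Gstm1, -0.023 for Gstm7 and 0.057 for Cyp4f14; within higher scores it turned to -0.08 for Cyp2c40, 0.013 for Sult1d1, -0.016 for Gstm4, 0.133 for Cyp2s1 and -0.009 for Cyp2c69. The cause was not tested. With the replicate number as a block the GF time count was 1 (Cyp2u1) and no other count moved by over 1.5 times. Same-number pairs correlated between -0.199 and 0.466 in SPF and -0.456 and 0.204 in GF libraries, so a shared source of such pairs was not shown. Splits by position and leaving out ZT11 were chosen after seeing the data. Members under 1 CPM, such as Cyp2r1, rest on few counts. Shares of all genes that passed under these settings are not given here, so changed counts are not read as particular to the members.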
